A study of Rattus norvegicus with 12 samples.

Results

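The canaliculus is the channel between neighbouring hepatocytes into which bile is secreted. This account describes 7 genes whose proteins move sterols, phospholipids, bile salts and conjugates across that membrane or keep its lipids in order: Abcg5, Abcg8, Abcb4, Abcb11, Abcc2, Atp8b1 and Abcb1a. The members are all probe sets that the array's platform annotation assigns to one of these symbols alone. The rule itself uses no measured value, but the genes were chosen with earlier results of these data known. There were 9 such probe sets among 31042 that are not controls, covering 7 of 14217 genes, with a pair of probe sets each for Atp8b1 and Abcb1a.

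Liver RNA of 12 rats was measured, with 1 Affymetrix array per animal and 3 animals per group. In the Sprague Dawley strain, rats kept germ-free (numbered 1, 3 and 4) stood beside conventional ones (6, 7 and 8). In the Han Wistar strain, antibiotic-treated rats (13, 14 and 15) stood beside untreated controls (1, 2 and 3). The antibiotic rats had streptomycin and penicillin in their drinking water for 8 days. The streptomycin was at 4 mg/ml and the penicillin at 2 mg/ml, but whether in the stock or in the water is not settled by the labels. They give no sex, age, diet or hour of collection, and no genetic change is named for any group. Each treated group was set against the control group of its own strain. This describes how liver RNA differs between germ-free or antibiotic-treated rats and rats with their usual microbes. The values used here do not show how far the antibiotics changed the microbes.

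As background, Abcg5 and Abcg8 form a transporter only as a pair, which secretes cholesterol and plant sterols into bile. Abcb4 flips phosphatidylcholine outward into bile, and Abcb11 is the bile salt export pump that drives bile flow. Abcc2 exports bilirubin conjugates and other organic anions, Atp8b1 is a flippase that returns phosphatidylserine and related lipids to the inner leaflet, and Abcb1a is a form of the drug pump P-glycoprotein. In rodent liver the sterol receptors LXR act on the Abcg5 and Abcg8 genes, and the bile acid receptor FXR on Abcb11 and Abcb4. Gut microbes deconjugate and dehydroxylate bile salts, and so change the bile acids that return to the liver.

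Abcg5 and Abcg8 lie head to head on rat chromosome 6 and share the stretch between their starts. It is shown because these partner genes were both far lower in germ-free than in conventional rats. In RefSeq's GRCr8 annotation it spans chr6:15717731-15717935, 205 bases written on the strand of Abcg5, so that Abcg8 starts to the left and Abcg5 to the right. Capitals mark the matches to GATAA, the letters that GATA factors recognise.
Abcg5 and Abcg8 intergenic: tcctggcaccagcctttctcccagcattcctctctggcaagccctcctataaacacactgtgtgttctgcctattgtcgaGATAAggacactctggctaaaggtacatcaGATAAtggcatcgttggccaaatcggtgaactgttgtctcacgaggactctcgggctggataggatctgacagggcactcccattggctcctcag
The promoter windows of the 2 genes, 300 bases each, overlapped over 295 bases, so they are not independent sequences. GATAA stood there 2 times, ending 121 and 91 bases before the start of Abcg5, and on either strand it occurred in 26.5% of all 33469 promoters of that length. The nuclear receptor hexamer AGGTCA was absent from these windows and present in 16.2% of all promoters. No promoter of Abcb11 was available, so Abcb11 was not searched. Of the 6 members with a RefSeq promoter, Abcc2 alone held AGGTCA, 2 times. None of these 6 promoters held AGGTCA as a direct repeat spaced by 4 or by 1, or as an inverted repeat spaced by 1. None held the palindrome CACGTG either. These patterns were found in 0.00598%, 0.0538%, 0.0269% and 6.42% of all promoters in that order. CAAGG, which 52.4% of promoters held, occurred 1 time each in those of Abcb4 and Abcb1a. These letter matches describe the windows and show no binding.

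Values below are the deposited linear signal intensities, on which each array has the same trimmed mean. Differences are on the log2(signal + 16) scale, and p-values come from limma fitted to all 15523 probe sets with a mean signal of at least 19.7, the median, with Benjamini-Hochberg adjustment and a threshold of 0.05. All 9 transporter probe sets passed that filter. Abcg8 passed it through the conventional group, where its mean was 104.5. Its means were 17.0 in germ-free, 24.0 in antibiotic-treated and 12.1 in untreated rats. Signals of different probe sets depend on their own probes and are not set against each other.

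In germ-free rats 7 of the 9 transporter probe sets differed from conventional rats at an adjusted p under 0.05 in limma, 6 of them lower and 1 higher, against 12.2% of all probe sets tested, 5.39% lower and 6.86% higher. The median log2 difference was -0.62 over the 9 and 0.05 over all probe sets. The groups did not overlap for 7 of 9, against 29.1% of all. Because the genes were chosen with earlier results of these data known, these shares are a description and no test of the set. Endothelial marker signals were higher in germ-free rats as well, with values given at the end. In antibiotic-treated rats 0 of 9 were called, against 0.0193% (3) of all probe sets in limma. At an unadjusted p under 0.05 there were 2 of the 9 and 1547 of all, and the groups did not overlap for 2 of 9, against 18.4% of all. The median was -0.04 over the 9 and 0.01 over all.

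**Figure D1:**
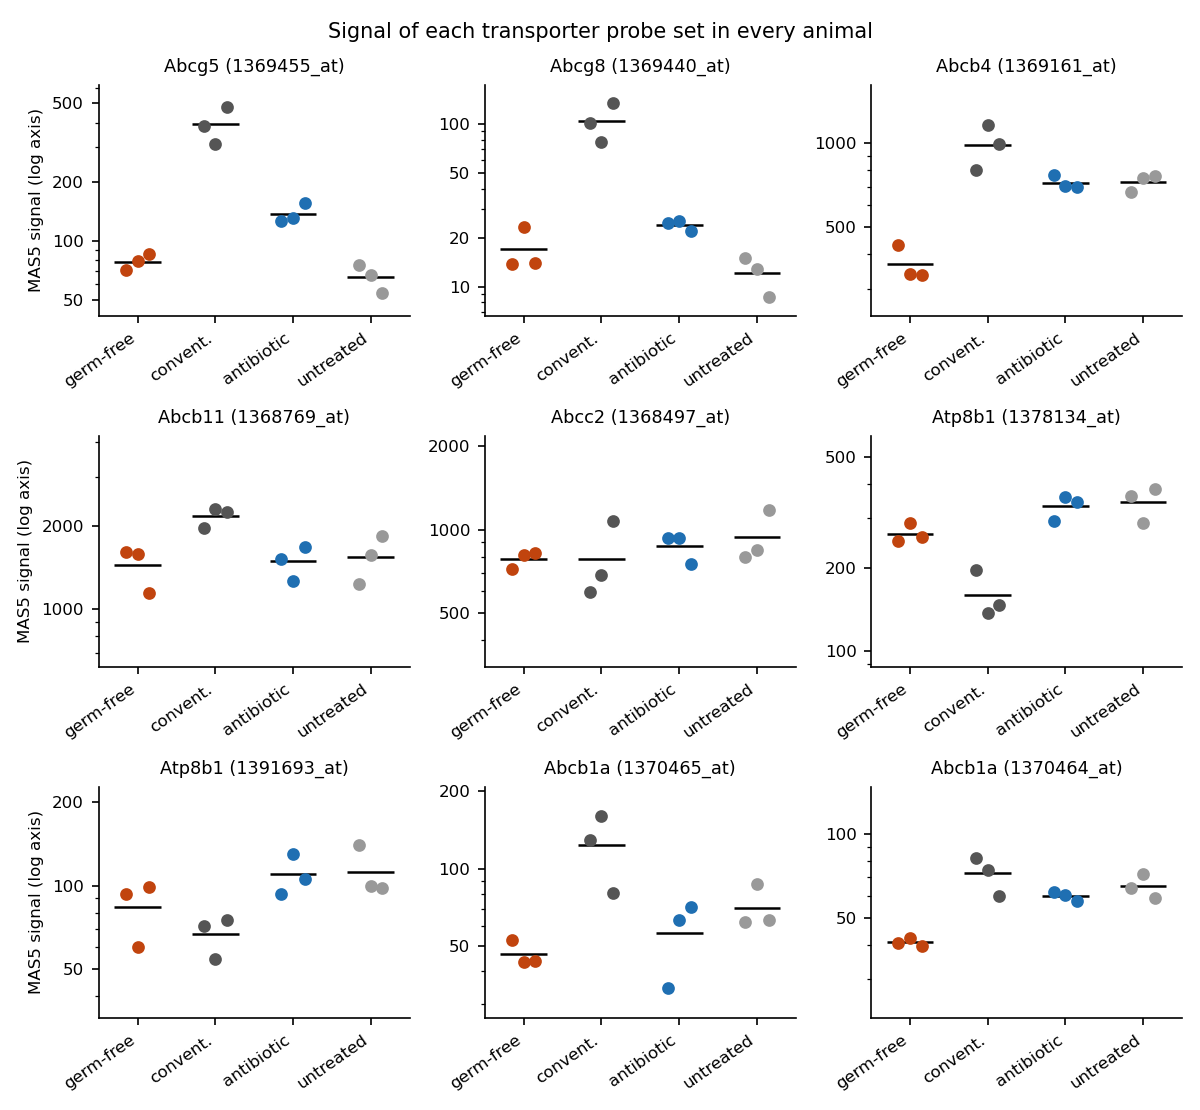
Deposited MAS5 signal (log axis, arbitrary units) of the 9 transporter probe sets in each of the 12 rats. Points are animals and bars are group means; the vertical range differs between panels. Abcg5 lay at 71.1 to 85.3 in germ-free and 311.3 to 480.3 in conventional rats, and at 126.5 to 155.7 in antibiotic-treated and 54.1 to 75.3 in untreated rats.

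Abcg5 and Abcg8 had the lowest log2 differences of the members in germ-free rats at the offset used. With an offset of 64 Abcg8 stood at -1.04, above Abcb4 at -1.27, while Abcg5 remained the lowest at -1.67. Abcg5 (1369455_at) had signals of 71.1, 78.8 and 85.3 in germ-free rats, against 385.7, 311.3 and 480.3 in conventional rats. Every germ-free animal lay far below every conventional animal, and the means were 78.4 ± 7.11 and 392.4 ± 84.7 (SD, n = 3 each). The conventional mean was 5.01 times the germ-free mean. The log2 difference was -2.10 ± 0.15 (SE, 95% interval -2.43 to -1.76, adjusted p in limma 5.18e-06), the 6th smallest p of the 15523 probe sets. Abcg8 (1369440_at), its obligate partner, had signals of 13.8, 23.4 and 13.9 in germ-free rats, against 101.6, 77.5 and 134.5 in conventional rats. The groups were again far apart, with means of 17.0 ± 5.51 and 104.5 ± 28.6, and the conventional mean was 6.14 times the germ-free mean. Germ-free animals 1 and 4 lay below the 19.7 at which the filter was set, so that ratio rests on signals near the low end of the array. The log2 difference of -1.85 ± 0.18 (adjusted p in limma 3.8e-05) became -2.55 with an offset of 1, and remained called with either offset. In tissue RNA, fewer cells of a type and less RNA per cell cannot be told apart from a gene's signal alone. The summed hepatocyte marker signals were 38787 to 43510 in germ-free rats, against 34937 to 38196 in conventional rats. The median log2 difference of that list was 0.20. The part of cell numbers in the result was not tested.

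In antibiotic-treated rats the signals of this pair lay above those of their controls, and neither difference passed the adjusted threshold. Abcg5 had 126.5, 131.0 and 155.7 in antibiotic-treated rats, against 75.3, 66.7 and 54.1 in untreated rats. All 3 treated animals exceeded all 3 controls, with means of 137.7 ± 15.7 and 65.4 ± 10.7, a ratio of 2.11. The log2 difference was 0.92 ± 0.15 (95% interval 0.59 to 1.25, adjusted p in limma 0.0785), also the 6th smallest p of 15523. It passed in 1 of 23 alternative analyses, with arrays weighted by quality (adjusted p in limma 0.0338). Abcg8 had 24.7, 25.4 and 22.0 in antibiotic-treated rats, against 15.0, 12.8 and 8.6 in untreated rats. These groups did not overlap either, and the means were 24.0 ± 1.80 and 12.1 ± 3.25. Every untreated animal lay below both the filter and the median of its own array. The log2 difference of 0.51 ± 0.18 (95% interval 0.13 to 0.90) had an adjusted p of 0.336 in limma, and was 0.96 with an offset of 1 and 0.21 with an offset of 64. In the same comparison the hepatocyte marker probe sets had a median difference of 0.42, with 0 of 6 called in limma. The Kupffer cell ones had 0.56, with 0 of 5 called, against 0.0193% of all probe sets. Their part in the result was not tested.

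The 2 control groups themselves stood apart for this pair. Conventional Sprague Dawley rats had the highest Abcg5 and Abcg8 signals of the 4 groups and untreated Han Wistar rats the lowest, with antibiotic-treated and then germ-free rats in between. For Abcg5 the germ-free and untreated Han Wistar ranges, 71.1 to 85.3 and 54.1 to 75.3, overlapped. For Abcg8 neither antibiotic-treated and germ-free nor germ-free and untreated rats were separate. Strain and experiment changed together between these groups and cannot be told apart, so no test was made between the controls.

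Abcb4 (1369161_at), the phosphatidylcholine floppase, was lower in germ-free rats, with signals of 432.2, 339.0 and 337.7, against 800.3, 1160.6 and 994.8 in conventional rats. The highest germ-free animal was well below the lowest conventional one. The means were 369.6 ± 54.2 and 985.2 ± 180.3, and the conventional mean was 2.67 times the germ-free mean. The log2 difference was -1.37 ± 0.14 (95% interval -1.66 to -1.08, adjusted p in limma 4.36e-05). In antibiotic-treated rats Abcb4 had 767.4, 702.7 and 697.4, against 669.4, 751.7 and 765.7 in untreated rats, and these ranges overlapped almost fully. That difference was -0.01 ± 0.14, with a 95% interval of -0.30 to 0.28 (adjusted p in limma 0.993).

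Abcb11 (1368769_at), the bile salt export pump, had a smaller difference. Its signals were 1607.4, 1576.2 and 1142.1 in germ-free rats, against 1953.5, 2298.0 and 2244.5 in conventional rats. The groups did not overlap, although germ-free animal 4 lay well below the other two. The log2 difference was -0.59 ± 0.16 (95% interval -0.94 to -0.25, adjusted p in limma 0.0271). Without germ-free animal 4 the adjusted p in limma was 0.111, without conventional animal 7 it was 0.0866 and without conventional animal 8 it was 0.0708. It was 0.0536 with no filter on signal, and 0.176 with the actin ratio described below as a covariate. Antibiotic-treated rats had 1517.3, 1270.1 and 1682.8, against 1239.1, 1562.5 and 1830.0 in untreated rats, with wide overlap. The difference was -0.04 ± 0.16 (95% interval -0.39 to 0.30, adjusted p in limma 0.965).

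Abcc2 (1368497_at), which exports conjugated bilirubin, did not pass in either comparison. It had 722.0, 809.4 and 826.1 in germ-free rats, against 596.7, 684.4 and 1075.5 in conventional rats. The germ-free values lay inside the conventional range, and the log2 difference was 0.04 ± 0.19 with a 95% interval of -0.37 to 0.46 (adjusted p in limma 0.909). It had 933.2, 936.2 and 752.2 in antibiotic-treated rats, against 797.4, 847.3 and 1173.9 in untreated rats. Here too the ranges overlapped, and the difference was -0.09 ± 0.19 with a 95% interval of -0.50 to 0.32 (adjusted p in limma 0.932). Its spread in the control groups, with 1 high animal in each (conventional 8 and untreated 3), made these intervals wide.

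Atp8b1, the aminophospholipid flippase, was the only member with a called probe set that was higher in germ-free rats. Probe set 1378134_at had 248.6, 288.5 and 257.4 in germ-free rats, against 195.2, 137.4 and 147.3 in conventional rats. The groups were separate, the germ-free mean was 1.66 times the conventional mean, and the log2 difference was 0.69 ± 0.14 (95% interval 0.38 to 0.99, adjusted p in limma 0.00662). With the actin ratio as a covariate it was 0.47, with an adjusted p of 0.0851 in limma. The other probe set, 1391693_at, had 93.1, 60.3 and 98.6 in germ-free rats, against 71.6, 54.5 and 75.4 in conventional rats. These overlapped, and its difference of 0.25 ± 0.18 (95% interval -0.14 to 0.64) had an adjusted p of 0.398 in limma, so the call for this gene rests on 1 of 2 probe sets. Antibiotic-treated rats had 293.8, 357.7 and 344.7 on the called probe set, against 361.2, 290.2 and 382.1 in untreated rats, a difference of -0.05 with an adjusted p of 0.959 in limma.

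Abcb1a, a drug efflux pump that lies beside Abcb4 and Abcb1b in the genome, was lower in germ-free rats on both probe sets. Probe set 1370465_at had 52.8, 43.5 and 43.9 in germ-free rats, against 129.4, 160.3 and 80.9 in conventional rats. The groups did not overlap and the conventional mean was 2.64 times the germ-free mean, with a log2 difference of -1.11 ± 0.23 (adjusted p in limma 0.00602). With the actin ratio as a covariate it was -0.95, with an adjusted p of 0.066 in limma. Probe set 1370464_at had 40.7, 42.2 and 39.5 in germ-free rats, against 81.8, 74.3 and 60.0 in conventional rats. All 3 germ-free values were close together and below every conventional one, and the difference was -0.62 ± 0.12 (adjusted p in limma 0.00504). It was -0.37 with an offset of 64 (adjusted p in limma 0.00607). A further probe set is assigned by the annotation to both Abcb1a and its neighbour Abcb1b, and is therefore no member. It had 68.4, 71.9 and 65.3 in germ-free rats, against 90.9, 86.1 and 87.4 in conventional rats. That smaller difference of -0.30 ± 0.22 did not pass (adjusted p in limma 0.392), although the groups did not overlap. Its SE draws on the spread of all 4 groups. The SDs were 3.30 in germ-free and 2.48 in conventional rats, but 55.4 in antibiotic-treated and 39.1 in untreated rats. Whether the Abcb1a probe sets also take up Abcb1b RNA was not tested.

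In antibiotic-treated rats the Abcb1a probe sets overlapped with their controls. On 1370465_at they had 34.4, 63.4 and 70.9, against 62.0, 86.9 and 63.3 in untreated rats, a difference of -0.29 ± 0.23 (adjusted p in limma 0.726). On 1370464_at they had 61.6, 60.2 and 57.4, against 64.1, 72.0 and 58.9, a difference of -0.09 (adjusted p in limma 0.864). The order of group means was conventional, untreated, antibiotic-treated and germ-free on both, as it was for Abcb4 and Abcb11. Neighbours in that order did not overlap only for conventional and untreated rats with Abcb4 and Abcb11, for antibiotic-treated and germ-free rats with Abcb4, and for antibiotic-treated and germ-free rats with 1370464_at. For Atp8b1 1378134_at the order was the untreated, antibiotic-treated, germ-free and conventional groups, with overlap only between the first pair, and for Abcc2 and 1391693_at every pair of neighbours overlapped.

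**Figure D2:**
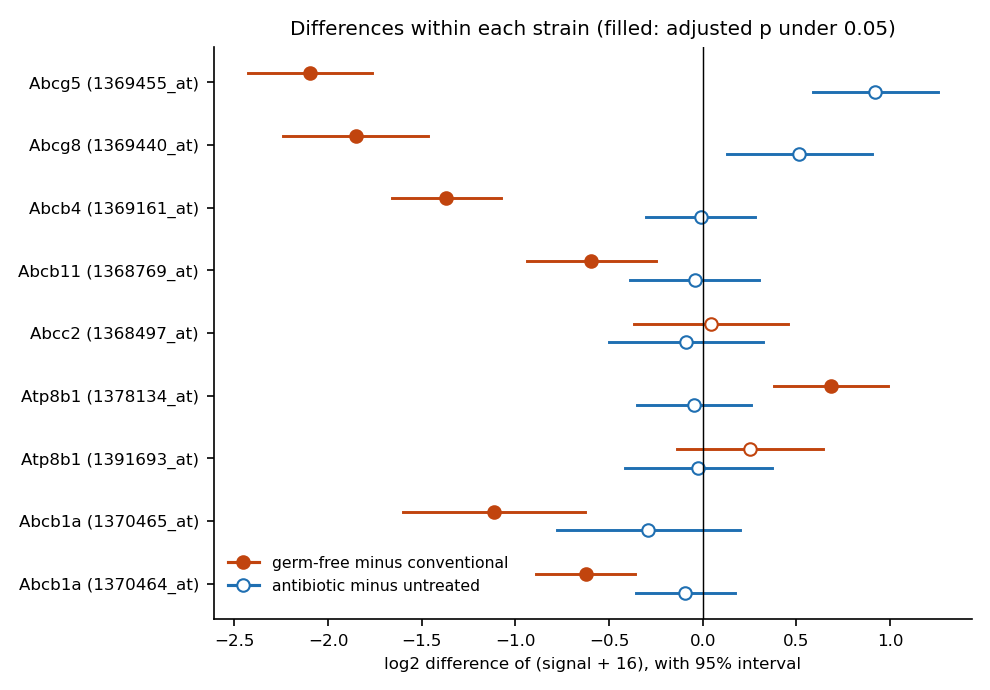
Log2 difference of (signal + 16) for each transporter probe set, germ-free minus conventional (orange) and antibiotic minus untreated (blue). Bars are 95% intervals from limma and filled points have an adjusted p under 0.05. Abcg5 stood at -2.10 and 0.92, Abcg8 at -1.85 and 0.51, and Abcb4 at -1.37 and -0.01.

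The germ-free and antibiotic effects were then compared directly, as the germ-free minus conventional difference less the antibiotic minus untreated difference. Strain, experiment and treatment all differ between them and cannot be told apart. For 3 of the 9 probe sets the effects differed at an adjusted p under 0.05, all with the germ-free effect lower, against 5.03% of all probe sets, 2.56% in that direction. Abcg5 had the smallest p of all 15523 probe sets in this test, with a difference of -3.02 ± 0.22 (95% interval -3.49 to -2.55, adjusted p in limma 2.46e-05). Abcg8 differed by -2.37 ± 0.25 (adjusted p in limma 0.00022), a value of -3.51 with an offset of 1 and -1.25 with an offset of 64. For Abcb4 the effects differed by -1.36 ± 0.19 (adjusted p in limma 0.00164). Atp8b1 1378134_at, at 0.73 ± 0.20, had an adjusted p of 0.0521 in limma and passed in 6 of 22 alternatives. Abcb1a 1370464_at, at -0.53 ± 0.17, had an adjusted p of 0.101 in limma and passed only after quantile normalization, at 0.0378. For Abcb11, Abcc2 and the other Atp8b1 and Abcb1a probe sets the adjusted p in limma ran between 0.164 and 0.836.

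The genes most like each transporter were found by the root mean square difference, over the 12 arrays, of log2(signal + 16) taken relative to the mean of the strain's own control group. This measure covers 9300 genes. Genes found in this way were picked on the same arrays, so their differences are given as a description, with no test. The nearest gene to Abcg5 was Abcg8, at 0.27, and the nearest to Abcg8 was Abcg5. Next to both came Qpct, which forms pyroglutamate ends on peptides, and Tjp3, a tight junction protein. Qpct had 4.4, 8.5 and 6.1 in germ-free rats, against 68.9, 39.5 and 36.2 in conventional rats. It had 39.2, 30.8 and 27.4 in antibiotic-treated rats, against 21.7, 10.1 and 10.0 in untreated rats. As with the sterol pair, germ-free animals were low and antibiotic-treated animals high relative to controls of their strain. The log2 differences of Qpct were -1.49 in germ-free and 0.71 in antibiotic-treated rats, and those of Tjp3 were -1.50 and 0.54. Germ-free signals of both, up to 8.5 for Qpct and 6.9 to 22.4 for Tjp3, lay near the low end of the array. Over the alternative analyses the germ-free differences ran between -2.73 and -0.66 for Qpct and between -2.29 and -0.76 for Tjp3. Abcb4 was 43rd nearest to Abcg5 and 32nd nearest to Abcg8.

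The genes nearest to Abcb4 were Plpp2, a lipid phosphate phosphatase, at 0.19, then Plin5, a lipid droplet coat protein, at 0.21, and Fkbp5, a chaperone partner of the glucocorticoid receptor, at 0.21. Plin5 had 31.5, 22.9 and 14.4 in germ-free rats, against 94.5, 90.2 and 94.3 in conventional rats, a log2 difference of -1.51. Its antibiotic-treated rats had 22.3, 24.2 and 30.6, against 22.0, 19.5 and 22.7 in untreated rats, a difference of 0.15. Plpp2 had differences of -1.17 in germ-free and 0.02 in antibiotic-treated rats, and Fkbp5 of -1.06 and 0.04. Nearest to Abcb11 were P2rx4, Ubxn4 and Creg1, to Atp8b1 Rasgrp2, C2cd2l and Gsn, and to Abcb1a Slc16a13, Cystm1 and Tlcd4. Nearest to Abcc2 were Ppp4c, Selenot and Selenof, with germ-free differences of 0.09, 0.09 and 0.04.

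**Figure D3:**
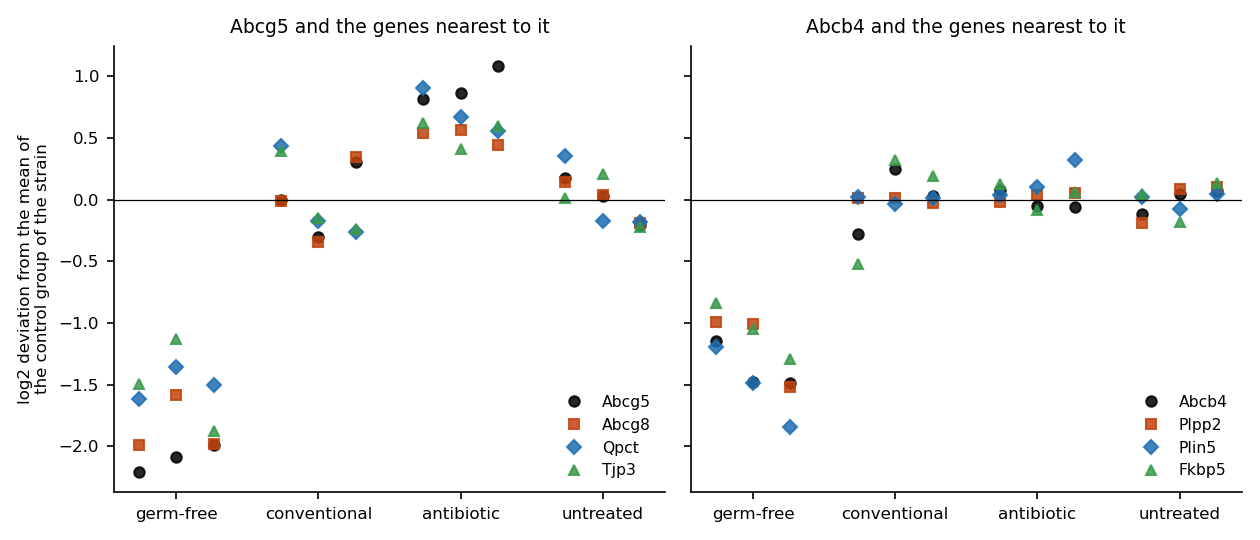
Log2 deviation of each rat from the mean of its strain's control group, for Abcg5 with its 3 nearest genes (left) and Abcb4 with its 3 nearest (right). Points are animals. The left-hand genes lie below 0 in germ-free and above 0 in antibiotic-treated rats; the right-hand genes lie below 0 in germ-free rats and between -0.08 and 0.32 in antibiotic-treated rats, where Plin5 is above 0 in all 3.

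Around the transporters, 5 lists of related genes were counted by probe set. Of the genes with a tested probe set, Srebf1, Nr1h3, Nr0b2, Abca1 and Abcg1 are each on 2 of them. Over all probe sets tested, 5.39% fell and 6.86% rose in germ-free rats. Among other hepatocyte transport genes, 4 of 23 probe sets fell in germ-free rats, 2 rose and 17 did not pass, with a median of -0.11. Abcc4, a basolateral exporter of bile salts and other anions, had 38.9, 31.2 and 29.1 in germ-free rats, against 90.2, 67.3 and 56.6 in conventional rats. It fell by 0.82 ± 0.17 on the log2 scale (adjusted p in limma 0.00568). The uptake carrier Slco2b1 rose by 0.63 on 1 of its 2 probe sets (adjusted p in limma 0.0115, and 0.0533 without conventional animal 7). Its other probe set had 0.10 (adjusted p in limma 0.585). Abcc6 rose by 0.45 (adjusted p in limma 0.0143). That adjusted p was 0.0616 without germ-free animal 3, 0.0508 without conventional animal 7 and 0.06 in a fit on the strain's own 6 arrays. The other 3 that fell were a pair of Abca1 probe sets, described with the LXR targets, and 1 of 2 of Slco1a4, an organic anion carrier, by 0.82 (adjusted p in limma 0.0417). That Slco1a4 call was lost in 11 of 23 alternatives, among them the fits lacking germ-free animal 3 (0.0903) or 4 (0.159), conventional 7 (0.127) or 8 (0.0993), untreated 3 (0.0517) or antibiotic-treated 15 (0.0503). The main bile salt uptake carrier Slc10a1 had a difference of -0.0036 ± 0.10 (adjusted p in limma 0.987).

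Of the partners and apical trafficking genes, 2 of 20 probe sets rose, 1 fell and 17 did not pass, with a median of 0.19. That was near the shares of all probe sets, 6.86% rising and 5.39% falling. Rdx encodes radixin, which ties canalicular membrane proteins to actin. It rose on 1375542_at by 1.21 ± 0.17 (adjusted p in limma 0.000494), with 371.7, 253.3 and 241.5 in germ-free rats, against 120.7, 120.7 and 100.7 in conventional rats. It also rose by 0.42 on 1396207_at, a call lost without germ-free animal 4 (adjusted p in limma 0.0976) and without conventional animal 6 (0.0647) or 7 (0.0712), and on the strain's own 6 arrays (0.082), while its other 3 probe sets did not pass. Pctp, a phosphatidylcholine transfer protein, fell by 0.63 ± 0.13 (adjusted p in limma 0.00698). Nherf1, a scaffold under the apical membrane, did not pass on either probe set. Its probe set 1370032_at had 0.63 ± 0.20 (adjusted p in limma 0.0559), with conventional signals of 13.8 to 17.1, near the low end of the array. The brighter 1387793_at had 0.29 ± 0.18 (adjusted p in limma 0.31). Tmem30a, the subunit that Atp8b1 needs to leave the endoplasmic reticulum, had a difference of 0.25 ± 0.11 (adjusted p in limma 0.158).

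Of the receptors and factors that act on these genes, 6 of 21 probe sets rose, 1 fell and 14 did not pass, with a median of 0.39. Of all probe sets 6.86% rose and 5.39% fell. Srebf1, an activator of fatty acid synthesis, rose by 2.44 ± 0.38 and 2.23 ± 0.38 on its 2 probe sets (adjusted p in limma 0.00121 and 0.0021). Nr1i3, the receptor CAR, had 196.0, 136.6 and 74.8 in germ-free rats, against 281.6, 485.1 and 478.2 in conventional rats, and fell by 1.55 ± 0.26 (adjusted p in limma 0.00169). Nr5a2, a receptor that acts on bile acid genes, rose by 0.84 on 1 of 3 probe sets (adjusted p in limma 0.00879). The remaining rises were a pair of Hnf4a probe sets, of the hepatocyte factor HNF4 alpha, and Rxra, the partner of LXR and FXR. Hnf4a 1369289_at rose by 0.83 ± 0.19 (adjusted p in limma 0.0101, and 0.054 without germ-free animal 3). Hnf4a 1382496_at rose by 0.68 ± 0.21 (adjusted p in limma 0.0475). The other Hnf4a probe set, 1392969_at, had 0.12 ± 0.12 and did not pass (adjusted p in limma 0.552). Rxra rose by 0.67 ± 0.19 (adjusted p in limma 0.0337). The call of Hnf4a 1382496_at was lost in 15 of 22 alternatives, 10 of them leaving out 1 animal (any germ-free or antibiotic-treated one, conventional 7 or 8, untreated 2 or 3), with an adjusted p of up to 0.178 without conventional animal 7. That of Rxra was lost in 8 of 23, among them the fits lacking germ-free animal 3 (0.111) or 4 (0.117) or conventional 6 (0.11) or 7 (0.105). The transcripts of LXR alpha and FXR did not pass: Nr1h3, which encodes LXR alpha, had 0.39 ± 0.13 (adjusted p in limma 0.07) and Nr1h4, which encodes FXR, had 0.28 ± 0.15 (0.241).

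The other LXR targets did not move in 1 direction. Of 16 probe sets 3 rose, 2 fell and 11 did not pass, with a median of 0.22, against 6.86% rising and 5.39% falling of all. The 3 that rose were both Srebf1 probe sets and Mylip, the ubiquitin ligase that removes the LDL receptor, at 0.65 ± 0.15 (adjusted p in limma 0.0098). Mylip signals were low, at 43.0 to 48.6 in germ-free and 17.6 to 29.3 in conventional rats. Its difference ran between 0.33 and 0.96 over 22 alternatives, all with the call kept. Both that fell belong to the cholesterol exporter Abca1, at -1.11 and -1.48 (adjusted p in limma 0.0284 and 0.0288). Its other 2 probe sets had 0.39 and 0.33 and did not pass, so the gene has no single direction here. Both Abca1 calls were lost with no filter on signal, on the strain's own 6 arrays and with a robust prior (adjusted p in limma 0.0521 to 0.0847). So they were without germ-free animal 1 (adjusted p in limma 0.0833 and 0.0887) or 4 (0.0868 and 0.105), and without conventional animal 6 (0.0534 and 0.057) or 7 (0.11 and 0.0933). Of the other FXR targets 2 of 8 probe sets rose, none fell and 6 did not pass, with a median of 0.20, against the same shares of all. Sdc1, the heparan sulphate proteoglycan syndecan-1, rose by 0.67 ± 0.15 on 1 of its 2 probe sets (adjusted p in limma 0.00907), while the other had 0.29 (0.169). Apoc2, an apolipoprotein that activates lipoprotein lipase, rose by 0.35 ± 0.11 (adjusted p in limma 0.0474). Its call was lost in 11 of 23 alternatives, among them the fits lacking germ-free animal 3 (0.135) or 4 (0.147), conventional 7 (0.156) or 8 (0.0989), untreated 1 (0.0597) or 2 (0.0636), or antibiotic-treated 15 (0.0625). Slc27a5, which joins bile acids to coenzyme A, had -0.34 ± 0.11 and did not pass (adjusted p in limma 0.0658). Nr0b2, the repressor SHP, had 1.27 ± 0.45 (adjusted p in limma 0.0844). In antibiotic-treated rats 0 probe sets of any of the 5 lists passed in limma, against 0.0193% of all probe sets. The list medians ran between -0.03 and 0.21.

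**Figure D4:**
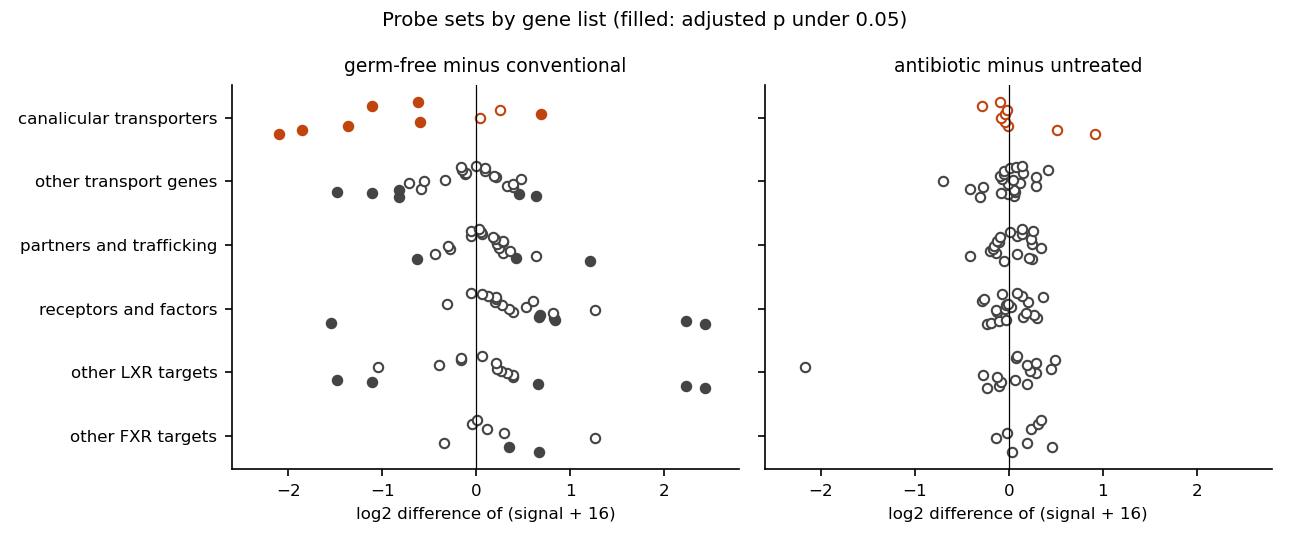
Log2 difference of (signal + 16) of the transporter probe sets (orange) and of 5 lists of related genes (dark), germ-free minus conventional on the left and antibiotic minus untreated on the right. Each point is a probe set, and filled points have an adjusted p under 0.05. On the left 7 of 9 transporter probe sets are filled; on the right none is.

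The arrays were alike in scale and correlated at 0.9799 or more with the others of their group, with no duplicated column. The hepatocyte markers were bright throughout, with summed signals of 38787 to 43510 in germ-free, 34937 to 38196 in conventional, 28649 to 35894 in antibiotic-treated and 21073 to 26170 in untreated rats, and 0 of 6 probe sets passed in either comparison. The bile duct markers Cftr and Krt7 were under the filter on every array. Their list summed to 213.1 to 260.2 in germ-free and 219.6 to 320.1 in conventional rats, and to 128.6 to 230.3 in antibiotic-treated and 168.9 to 180.7 in untreated rats. Endothelial markers moved with the germ-free comparison: 6 of 7 probe sets rose, while of all probe sets 6.86% rose and 5.39% fell. Their sums were 1278.7 to 1803.4 in germ-free and 697.2 to 879.5 in conventional rats, and their part in the result was not tested. The calls of Kdr and of Lyve1 1382732_at among them were lost when any 1 of germ-free animals 1 and 3 and of conventional animals 6, 7 and 8 was left out. Kdr was also lost with no filter (0.0659) and with array weights (0.0628), and Lyve1 1382732_at in 15 of 22 alternatives in all. The Kupffer cell marker Clec4f fell by 0.64 (adjusted p in limma 0.0288), the only called one of 5 probe sets of its list, a call lost when germ-free animal 1 (0.0699) or 4 (0.0979) was left out, or conventional animal 7 (0.118) or 8 (0.052), and with no filter (0.0508). None of 8 stellate or of 1 lymphocyte probe sets passed, and Cd2, Cd3d and Cd79b were under the filter everywhere.

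The 3' to 5' signal ratio of the beta-actin control probes, which rises as RNA is degraded, was 4.39 ± 0.762 in germ-free and 5.37 ± 0.839 in conventional rats. It was 2.73 ± 0.131 in antibiotic-treated and 2.55 ± 0.123 in untreated rats. In each pair of groups the exact two-sided permutation test gave p = 0.2, where 0.1 is the smallest that 3 against 3 allows. With this ratio as a covariate, 4 of the 7 germ-free calls remained: Abcg5, Abcg8, Abcb4 and Abcb1a 1370464_at. The total called over all probe sets also fell with this covariate, as given in the closing section on processing. Among the other genes named above, the covariate ended calls while most log2 differences stayed near their size without it. They were 0.54 for Slco2b1, 0.42 for Abcc6, 0.49 for Rdx 1396207_at, -0.60 for Pctp, 0.58 for Sdc1, 0.65 for Rxra, 0.83 for Kdr, -0.60 for Clec4f, and 1.10 and 0.52 for the Lyve1 probe sets, with adjusted p in limma of 0.0535 to 0.195. They were smaller for Slco1a4 at -0.53, for Apoc2 at 0.26 and for Hnf4a at 0.50 and 0.35 (adjusted p in limma 0.308, 0.289, 0.121 and 0.385 in that order).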

How the data were processed

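The authors deposited 1 table of signal intensity on a linear scale for the 12 arrays, made with MAS5 per the submitters' processing notes in a version not given in the sources used here. Detection calls are not among its columns. After 2% was trimmed off each end, all arrays averaged 100.0, so no scaling was added. RNA came from RNeasy columns, per the labels' protocols. Symbols came from the platform annotation, updated through RefSeq's GRCr8 gene table. Its coordinates serve only the printed promoter stretch, since no build goes with the arrays.

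With limma 3.58.1 in R 4.3.3, log2(signal + 16) was fitted with 1 mean per group over 12 arrays and an intensity-trended prior (lmFit, eBayes), on 15523 of 31042 probe sets. Residual degrees of freedom were 8. The fit was tested on simulated data. The number of arrays limits the precision: the median SE of a log2 difference was 0.152. Exact permutation tests compared the actin ratio.

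The transporters and lists were chosen with earlier results of these data known. All member probe sets are described, with up to 4 probe sets per list by smallest germ-free p. Others named beyond these (Slco1a4, further Abca1, Nherf1 and Sdc1 probe sets, Hnf4a, Rxra, Slc10a1, Tmem30a, Nr1h3, Nr1h4) were chosen after their values were seen. Alternatives were other offsets, filters, scalings, priors, gene-level values, own-strain arrays, array weights, the actin covariate, and leaving out each animal.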

Additional observations from a re-analysis of the deposited data

Results flagged for a closer look

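For 3 of the 9 transporter probe sets the germ-free and antibiotic effects differed at an adjusted p under 0.05, against 5.03% of all 15523. The test was that of the difference itself, in limma. Abcg5 differed by -3.02 on the log2 scale, with every germ-free rat below every conventional rat and every antibiotic-treated rat above every untreated rat. Abcg8 differed by -2.37, with the same arrangement of animals. Abcb4 differed by -1.36, with germ-free rats below conventional rats and the antibiotic-treated and untreated ranges overlapping. Strain, experiment and treatment differ together between the effects and cannot be told apart. Groups of 3 were too small to look for outlying animals.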

How the results depend on the processing

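No paired analysis was possible because the groups compared share no animal numbers; numbers 1 and 3 recur only in germ-free and untreated rats, which are of different strains and were not compared. The germ-free differences of Abcg5, Abcg8, Abcb4 and Abcb1a 1370464_at kept their direction and call in all 23, 22, 23 and 21 alternatives that gave a value. The counts over all probe sets given here are totals called in each fit, not the part of the main calls that was kept. In germ-free rats the total was 1901 in the main fit, 1226 among fewer features at gene level and 855 with the actin covariate. It ran between 1006 and 2028 when 1 animal was left out, the lowest without germ-free animal 3. Of the 7 transporter probe sets 4 remained with the actin covariate, and 4 with the 75th percentile filter, under which fewer were tested. The 3 antibiotic calls became 1 with the 75th percentile filter, 1 with the strain's own 6 arrays, 25 with array weights, and 1 to 9 without 1 animal (9 without untreated animal 1); array weights called 1 transporter, Abcg5. For the difference of effects (781) the count was 496 with no filter, 1229 with array weights, 300 with the actin covariate, and 435 to 850 without 1 animal, the lowest without untreated animal 2 (438 without germ-free animal 3, 512 without untreated animal 1). The causes were not tested.

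Signs turned only for differences that were not called. Leaving out 1 animal gave Abcc2 values of -0.13 to 0.29 in germ-free rats. In antibiotic-treated rats it gave -0.0703 to 0.0245 for Abcb4, -0.19 to 0.0882 for Abcb11, -0.19 to 0.0796 for Abcc2, -0.16 to 0.0354 for Atp8b1 1378134_at and -0.14 to 0.12 for Atp8b1 1391693_at. Array weights gave 0.0202 for Abcb11, and the actin covariate 0.0296 for Atp8b1 1378134_at. For the difference of effects, Abcc2 ran between -0.0383 and 0.38. With 3 animals a group, the germ-free call of Abcb11 depended on single animals, while that of Abcb1a 1370464_at, of like size, did not.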
